A study of Mus musculus with 12 samples.

Results

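The subject is a set of 45 mouse genes that drive cells into and through mitosis, chosen by symbol from the 35275 genes of a deposited expression table. All 45 were found, and all 45 passed the filter used for testing (at least 1 FPKM in at least 3 libraries). The authors' unit is FPKM, the number of fragments corrected for gene length and library depth. The 12 RNA libraries came from flow-sorted hematopoietic stem cells of the C57BL/6 strain and form 4 groups of 3. Wild-type (Thpo+/+) and knockout (Thpo-/-) mice were either left untreated or given Romiplostim, an agonist of the thrombopoietin receptor, by vein for 10 days (100 µg/kg per day). The knockout lacks thrombopoietin, the ligand of that receptor, and the protocol names PBS for the controls that the labels call untreated. The sort gate is not given in the sources used here, and the labels do not say that the 3 libraries of a group came from separate animals, so p-values measure only the spread between these samples.

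At the onset of mitosis, cyclin B with its kinase Cdk1 starts chromosome condensation, breakdown of the nuclear envelope and assembly of the spindle. Kinetochores then couple each chromosome to spindle microtubules, and the spindle checkpoint holds back the anaphase-promoting complex until every pair is attached, after which sister chromatids part and the cell divides by cytokinesis. Most adult hematopoietic stem cells rest outside the cell cycle, and transcripts of mitotic genes rise in cells that pass through G2 and M phase.

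The libraries held an estimated 27.7 to 35.5 M fragments and 11262 to 12374 genes at 1 FPKM or more. Thpo itself was listed at 0 in 10 libraries and at 0.0208 and 0.0426 FPKM in 1 untreated and 1 treated wild-type library, so its level does not check the genotype labels here. Of 10 stem cell markers (Procr, Slamf1, Hlf and others) none was at 0 in any library, but 9 were lower in untreated knockout than in untreated wild type, and their summed level was 1182 to 1538 FPKM in untreated wild type against 251 to 383 FPKM in untreated knockout. Markers of other blood cells were much higher in untreated knockout: the summed level of 12 B cell genes was 88.2 to 98.7 FPKM in untreated wild type and 1828 to 4354 FPKM in untreated knockout. Each group was sequenced on 1 run, so run and group cannot be told apart. In these bulk samples fewer dividing cells and less mitotic RNA per cell cannot be told apart either.

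Promoters of mitotic genes commonly carry a cell cycle genes homology region (CHR), which the DREAM and MuvB complexes bind, and CCAAT boxes, which NF-Y binds. Stretches of 120 bases that end just before the RefSeq transcription start (GRCm38.p6) are shown for 6 genes. These genes come from mitotic entry, anaphase onset, chromosome structure and the spindle, not from the other roles, and differ in these letters. Only stretches with at most 30 bases in GENCODE exons were shown, a limit that 13 of the 41 stretches of the set exceeded. In Cdk1 the last 26 bases and in Cdc20 the last 9 lie in such exons, with the last marked letters of each. Capitals mark CHR letters (TTTGAA or TTTAAA) and CCAAT letters, each on either strand, which also gives TTCAAA and ATTGG. Cdk1 lies on the minus strand at chr10:69352913-69353032, Cdc20 on the minus strand at chr4:118437344-118437463 and Top2a on the minus strand at chr11:99024190-99024309. Kif11 lies on the plus strand at chr19:37376262-37376381, Ccnb2 on the minus strand at chr9:70421555-70421674 and Ncaph on the minus strand at chr2:127133955-127134074.
Cdk1: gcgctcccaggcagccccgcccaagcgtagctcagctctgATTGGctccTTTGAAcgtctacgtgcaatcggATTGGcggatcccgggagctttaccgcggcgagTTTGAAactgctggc
Cdc20: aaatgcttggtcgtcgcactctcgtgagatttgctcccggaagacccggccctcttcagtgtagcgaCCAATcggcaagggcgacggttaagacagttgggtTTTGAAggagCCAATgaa
Top2a: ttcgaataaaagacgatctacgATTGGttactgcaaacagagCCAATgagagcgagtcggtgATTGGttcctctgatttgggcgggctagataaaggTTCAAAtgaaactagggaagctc
Kif11: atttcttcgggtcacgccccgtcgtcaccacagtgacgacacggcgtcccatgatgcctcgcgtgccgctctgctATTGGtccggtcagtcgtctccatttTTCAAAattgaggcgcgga
Ccnb2: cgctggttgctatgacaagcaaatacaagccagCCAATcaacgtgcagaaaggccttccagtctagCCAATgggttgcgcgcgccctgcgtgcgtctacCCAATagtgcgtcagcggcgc
Ncaph: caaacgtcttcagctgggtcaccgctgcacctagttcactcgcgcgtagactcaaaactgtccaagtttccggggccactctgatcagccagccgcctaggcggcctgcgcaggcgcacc

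Cdk1 (the kinase of mitotic entry), Cdc20 (an activator of the anaphase-promoting complex), Top2a (topoisomerase II, which untangles chromosomes) and Kif11 (a spindle motor) each held both kinds of letters in these stretches. Ccnb2, a mitotic cyclin, held 3 CCAAT boxes here and its 2 CHR matches elsewhere in the RefSeq window, which spans 250 bases before and 50 after the start. Ncaph, a condensin subunit, held neither. A RefSeq window was found for 38 of the 45 genes, the exceptions being Foxm1, Ccna2, Cdc25c, Kif20a, Tpx2, Aurkb and Smc4. CHR letters stood in 31 of these 38 genes (81.6%), against 30.6% of all 27025 genes with a window and 22.8% of the 9650 tested genes with one. CCAAT letters stood in 29 (76.3%), against 41.1% of all and 43.2% of tested genes, and both kinds in 27 (71.1%), against 12.2% and 9.43%. The shares were lower in 108 other mitosis genes, of which 40.7% held CHR letters and 27.8% both, and in 32 DNA replication genes, of which 28.1% held CHR letters and 18.8% both. The 5 genes with neither were Mad2l1, Ncaph, Nuf2, Nusap1 and Pttg1. A match describes the letters only, and no match says only that they are not in this window.

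**Figure D1:**
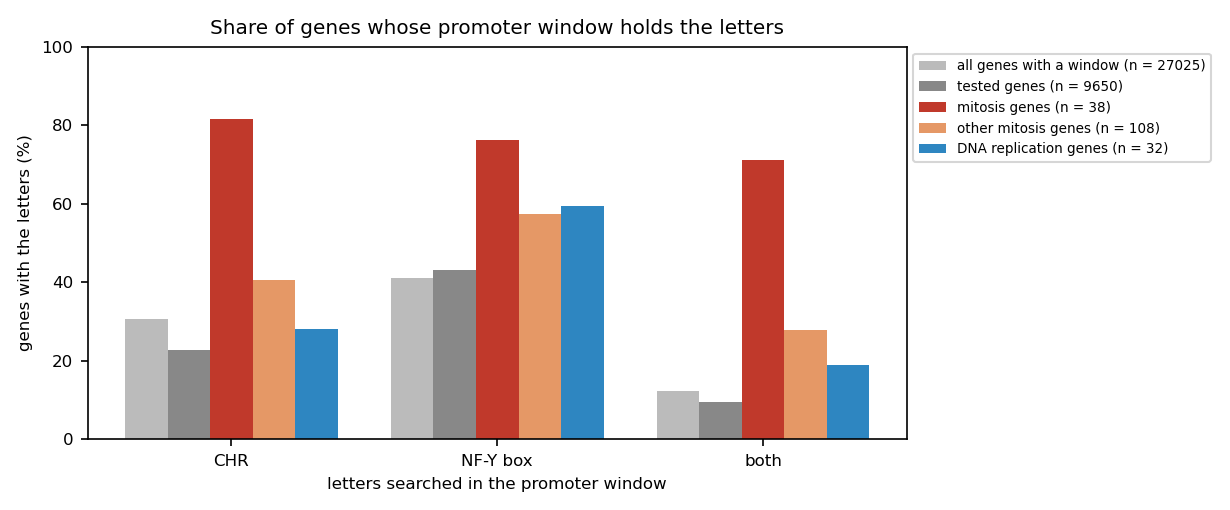
Share of genes (%, y axis) whose 300-base RefSeq promoter window holds CHR letters, CCAAT letters (NF-Y box) or both, for all genes with a window, tested genes, the 38 mitosis genes with a window, other mitosis genes and DNA replication genes. The red bars of the mitosis genes stand at 81.6%, 76.3% and 71.1%, the tallest in each set.

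In untreated knockout the mitosis genes were higher almost throughout. Of the 45 genes, 41 were higher and 1 was lower than in untreated wild type (limma on log2(FPKM + 1), Benjamini-Hochberg adjusted p under 0.05). This contrast was broad: 45.1% of all 12823 tested genes passed it, 22.1% as higher and 23.0% as lower. The median log2 fold change was 1.37 over the 45 genes, a 2.58-fold difference, and -0.03 over all tested genes. In 40 genes all 3 knockout libraries lay above all 3 wild-type libraries (27.2% of tested genes did so), and in 1 all lay below (29.0% of tested genes). Fold changes are on the log2(FPKM + 1) scale throughout, which understates the change of low genes such as Espl1.

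Among the kinases, cyclins and phosphatases of mitotic entry, all 8 rose in untreated knockout. Plk1, the polo-like kinase of mitotic entry and spindle assembly (GRCm38 chr7:122159439-122169873, plus strand), stood at 18.9, 19.3 and 25.4 FPKM in untreated wild type and at 105, 112 and 74.0 FPKM in untreated knockout. Under Romiplostim it stood at 51.9, 42.5 and 41.1 FPKM in wild type and at 56.6, 52.1 and 46.4 FPKM in knockout. The 2 untreated groups thus lay at the bottom and the top with no overlap, and the treated groups overlapped each other between them. The difference between the untreated groups was 2.13 ± 0.17 (log2 fold change ± SE, limma adjusted p = 8.79e-06), the largest of the 45. Cdc25b, a phosphatase that activates Cdk1, stood at 6.35, 13.8 and 13.8 FPKM in untreated wild type and at 39.7, 61.4 and 47.5 FPKM in untreated knockout (2.08 ± 0.28, limma adjusted p = 0.00017). Its treated libraries lay at 16.3, 18.4 and 19.0 FPKM in wild type and at 11.5, 21.6 and 16.9 FPKM in knockout, all below the untreated knockout. Ccnb1, the main mitotic cyclin, had means of 66.3 ± 10.0 (SD, n = 3) and 275 ± 83.8 FPKM in the untreated groups, a log2 fold change of 2.0. Ccna2 (1.92), Aurka (1.69), Ccnb2 (1.37) and Cdc25c (1.34) also rose by more than the spread. Cdk1 moved least of the 8: its libraries held 125, 168 and 200 FPKM in untreated wild type and 255, 327 and 233 FPKM in untreated knockout, a log2 fold change of 0.73 ± 0.18 (limma adjusted p = 0.00575). Foxm1, a transcription factor that activates G2 and M phase genes, rose from 5.21 ± 2.34 to 15.2 ± 3.85 FPKM (1.43).

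**Figure D2:**
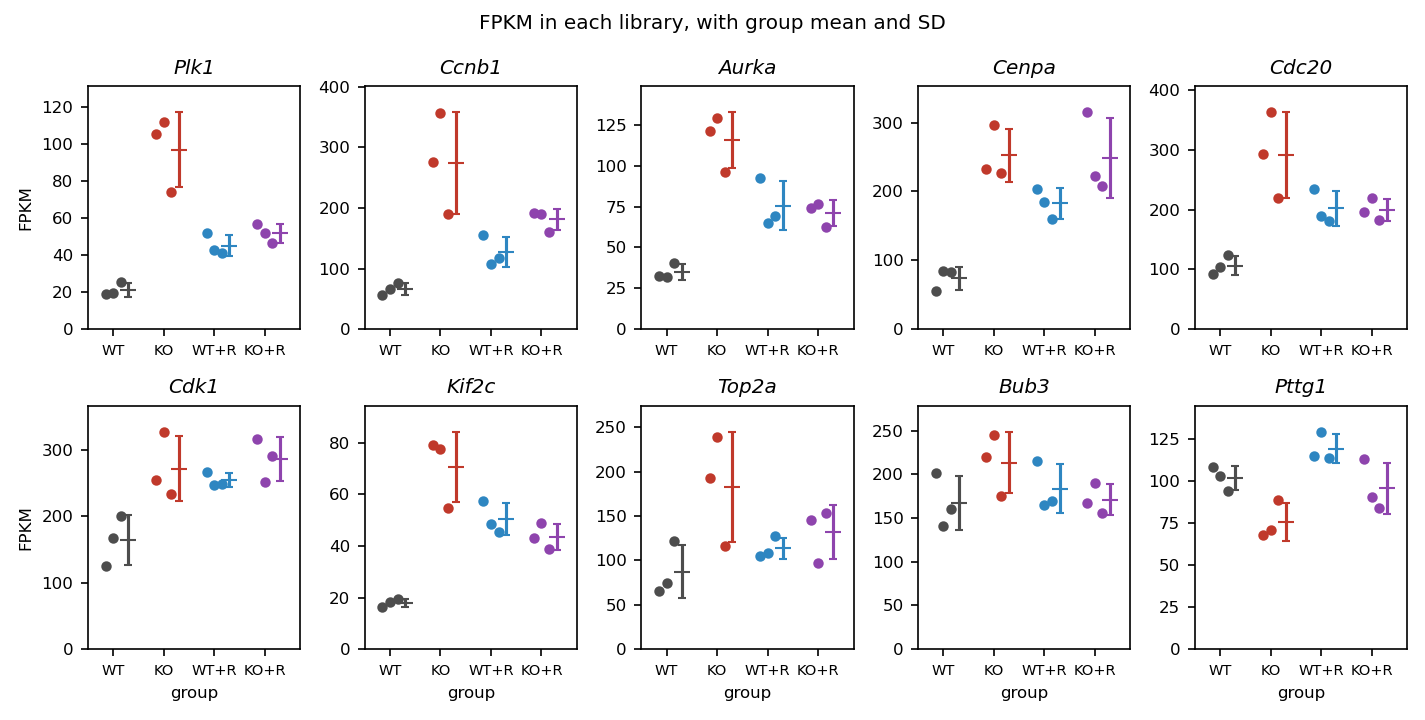
FPKM (y axis, linear, from 0) of selected mitosis genes in each library, by group on the x axis (WT untreated wild type, KO untreated knockout, +R Romiplostim), with points for libraries and bars for the group mean and SD (n = 3). Plk1 lies at 18.9 to 25.4 FPKM in untreated wild type and at 74.0 to 112 FPKM in untreated knockout, with the treated groups between.

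Of the 5 checkpoint genes, which delay anaphase until chromosomes are attached, 4 rose in untreated knockout. Bub1b, a checkpoint component that restrains Cdc20, stood at 29.4, 27.7 and 44.7 FPKM in untreated wild type and at 130, 131 and 75.6 FPKM in untreated knockout (1.69 ± 0.22). The kinases Bub1 and Ttk rose by 1.39 and 1.29, and Mad2l1 rose by 0.70. Bub3, which brings Bub1 to the kinetochore, did not pass: 201, 141 and 160 FPKM in untreated wild type overlapped 220, 245 and 176 FPKM in untreated knockout (0.35 ± 0.17, limma adjusted p = 0.113).

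The 4 genes of anaphase onset split. Cdc20 rose from 107 ± 15.5 to 292 ± 71.8 FPKM (1.42), Ube2c, the ubiquitin-conjugating enzyme of the anaphase-promoting complex, rose by 1.56, and Espl1, the separase that cuts cohesin, rose by 0.87 at a low level (1.04 ± 0.471 against 2.69 ± 0.531 FPKM). Pttg1, the securin that holds separase inactive, was the 1 gene that fell. Its libraries held 108, 103 and 93.9 FPKM in untreated wild type and 67.9, 70.7 and 88.7 FPKM in untreated knockout, with no overlap (-0.43 ± 0.14, limma adjusted p = 0.0267). Under Romiplostim Pttg1 stood at 115, 129 and 114 FPKM in wild type and at 113, 90.5 and 83.6 FPKM in knockout. The fall of Pttg1 no longer passed with median-of-ratios scaling or without replicate 1 or 2 of either untreated group, with a highest adjusted p of 0.102.

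Kinetochore genes rose in 5 of 6 cases. Cenpa, the histone H3 variant that marks centromeres, stood at 54.9, 84.1 and 83.6 FPKM in untreated wild type and at 233, 297 and 227 FPKM in untreated knockout (1.77 ± 0.20). Ndc80 (1.18), Nuf2 (1.13) and Spc25 (0.81), subunits of the complex that binds microtubules, rose, as did the motor Cenpe (1.01). Cenpf did not pass, with 7.57, 9.31 and 13.2 against 15.8, 24.2 and 10.5 FPKM (0.65 ± 0.28, limma adjusted p = 0.0808). The chromosomal passenger genes Aurkb (1.39), a kinase that corrects faulty attachments, and Birc5 (1.20), which encodes survivin, both rose.

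Of 7 genes for chromosome structure, 6 rose. Ncaph was at 26.2, 21.0 and 31.0 FPKM in untreated wild type and at 102, 109 and 67.3 FPKM in untreated knockout (1.78 ± 0.19), and the condensin subunits Ncapg (1.53) and Ncapd2 (1.25) rose with it. The condensin ATPases were less different, with Smc4 at 0.54 ± 0.15 past the threshold and Smc2 at 0.47 ± 0.21 not past it (limma adjusted p = 0.0877). Top2a stood at 65.8, 74.6 and 122 FPKM in untreated wild type and at 193, 239 and 117 FPKM in untreated knockout, which overlapped although the test was passed (1.05 ± 0.28, limma adjusted p = 0.0104). Mki67, the source of the Ki-67 proliferation antigen, rose by 1.04. Smc4 and Mki67 lost their calls without untreated knockout replicate 2 (adjusted p = 0.0507 and 0.0554).

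All 6 spindle genes and all 6 cytokinesis genes rose. Kif2c, a kinesin that takes microtubules apart at kinetochores, stood at 16.2, 18.3 and 19.4 FPKM in untreated wild type and at 79.4, 77.6 and 54.9 FPKM in untreated knockout (1.90 ± 0.16, limma adjusted p = 9.68e-06). Its treated wild-type libraries held 57.6, 48.4 and 45.6 FPKM and its treated knockout libraries 43.1, 48.9 and 38.7 FPKM, above every untreated wild-type library. The other spindle genes, Kif11, Nusap1, Hmmr, Tpx2 and Kif4, rose by 1.41 to 1.58. In cytokinesis, Ect2, which activates RhoA at the division plane, rose from 8.85 ± 1.28 to 36.9 ± 11.5 FPKM (1.90), and the midzone kinesin Kif20a rose from 7.16 ± 1.58 to 26.9 ± 5.36 FPKM (1.77). Anln, Prc1, Racgap1 and Kif23 rose by 0.97 to 1.30.

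**Figure D3:**
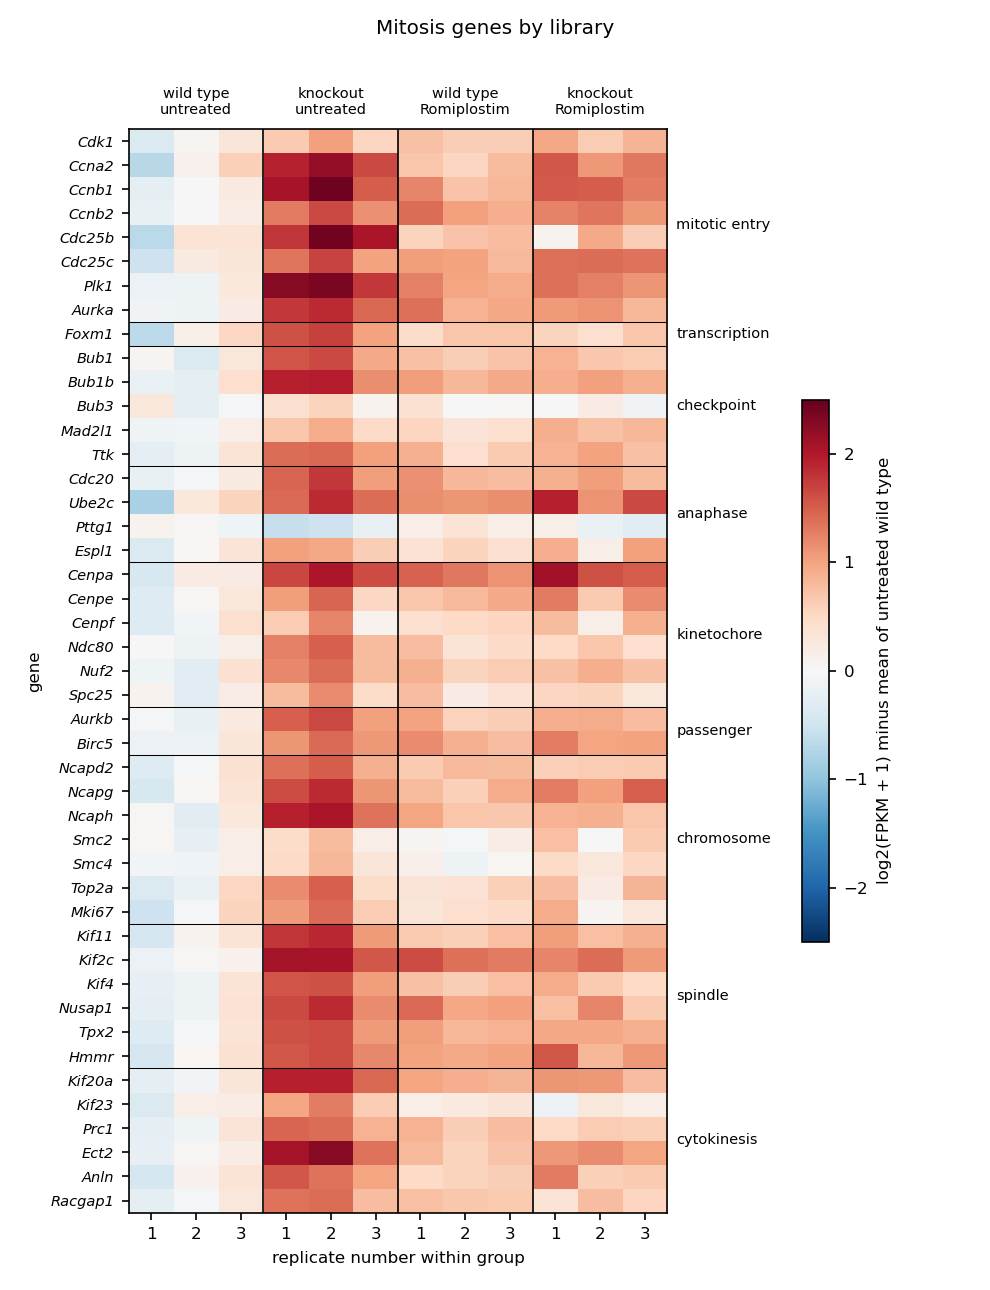
Log2(FPKM + 1) of each of the 45 genes (rows, by role) in each of the 12 libraries (columns, by group and replicate number), minus the mean of untreated wild type (color scale). The untreated knockout columns carry the highest values in most rows, and replicate 3 of that group is paler than replicates 1 and 2.

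In the untreated groups 1 library was highest or lowest across most of the set. Within untreated knockout, replicate 2 was highest in 40 genes and replicate 3 lowest in 43. Within untreated wild type, replicate 3 was highest in 42 genes and replicate 1 lowest in 32. The same library orders were not counted over all tested genes, so they may not be particular to this set. The median coefficient of variation over the 45 genes was 22.9% and 21.4% in untreated wild type and knockout, and 9.1% and 11.0% in the treated groups. Untreated knockout replicate 3 also had the highest summed level of myeloid markers, 36795 FPKM against 10429 and 7478 FPKM in replicates 1 and 2. No other group went above 5820 FPKM. Most of the 36795 FPKM came from S100a8, S100a9 and Ngp (14308, 12738 and 7178 FPKM). The other myeloid markers were mixed in this library. Mpo, Elane, Csf1r and Fcgr3 were lowest of their group, Ly86 and Irf8 highest, and Prtn3, Ctsg and Cd14 lay between. Replicate 2 of treated knockout had the most B cell marker RNA of its group. In a fit without these 2 libraries the median log2 fold change in untreated knockout was 1.51 over the mitosis genes. It was -0.03 over all tested genes, and 1 mitosis gene lay below 0. Treated knockout replicate 1 was kept there, although its summed erythroid level was 7519 FPKM against 1255 and 1918 FPKM in replicates 2 and 3. Its summed stem cell level was 434 FPKM against 880 and 704 FPKM.

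Markers of other cell types moved in the same contrast. In untreated knockout 11 of 11 tested B cell genes, 8 of 8 macrophage genes, 11 of 12 myeloid genes, 8 of 10 erythroid genes, 6 of 6 T and NK cell genes and 7 of 7 stromal and endothelial genes were higher, and 0 of 7 megakaryocyte genes passed (1 at an unadjusted p under 0.05, lower). Their summed levels in untreated wild type and untreated knockout were 64.3 to 95.9 against 1163 to 3135 FPKM for macrophage, 1362 to 3439 against 7478 to 36795 FPKM for myeloid and 526 to 981 against 3306 to 9843 FPKM for erythroid genes. For T and NK cell genes they were 124 to 168 against 356 to 510 FPKM, of which Nkg7 alone made up 122 to 167 and 223 to 299 FPKM. For stromal and endothelial genes they were 10.2 to 26.9 against 158 to 538 FPKM. The B cell factor Pax5 was listed at 0 in 5 libraries, none of them untreated knockout. The part of such cells in the levels of the mitosis genes was not tested.

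Other genes of mitosis, 130 in all and from the same structures, changed less evenly. In untreated knockout 72 were higher and 9 lower, and the median was 0.53 (log2). The kinase Nek2 rose from 12 ± 2.16 to 49.5 ± 12 FPKM (1.94 ± 0.19), and Ccnf (1.85), Gtse1 (1.78), Tacc3 (1.72), the cell cycle transcription factor Mybl2 (1.65), Dlgap5 (1.63) and Incenp (1.41) rose too. Anapc13, a subunit of the anaphase-promoting complex, fell from 69.4 ± 4.16 to 34.5 ± 3.86 FPKM (-0.99 ± 0.16). Of 38 tested genes of DNA replication and S phase, 19 were higher and 0 lower, with a median of 0.49. Those with the smallest p were cyclin E1, Ccne1 (2.90), and the ribonucleotide reductase subunit Rrm2 (2.38).

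In wild-type mice Romiplostim went with higher levels of part of the set. Of the 45 genes, 12 were higher and 0 lower than in untreated wild type, where 1.84% of all tested genes passed and 0.866% as higher. All 45 fold changes were positive, with a median of 0.69 (log2), against -0.04 over all tested genes, and in 37 genes all treated libraries lay above all untreated ones (10.3% of tested genes). Kif2c showed the largest difference, with the values given above (1.44 ± 0.16, limma adjusted p = 0.00114). Cenpa stood at 204, 184 and 160 FPKM against 54.9, 84.1 and 83.6 FPKM (1.31 ± 0.20, limma adjusted p = 0.008), and Ccnb2 at 188, 144 and 133 FPKM against 62.1, 69.8 and 80.6 FPKM (1.11 ± 0.17, limma adjusted p = 0.00704). In each of these 3 genes the lowest treated library lay above the highest untreated one. The other genes that rose were Nusap1 (1.14), Aurka (1.08), Plk1 (1.06), Hmmr (0.98), Cdc25c (0.96), Birc5 (0.95), Cdc20 (0.92), Tpx2 (0.92) and Kif20a (0.91). By role, 4 of 8 entry genes and 4 of 6 spindle genes rose, but 0 of 5 checkpoint genes and 0 of 7 chromosome structure genes passed in the fit without a replicate block (4 and 3 at an unadjusted p under 0.05). With the replicate number as a block in the wild-type groups alone, 4 and 3 of them passed, among them Bub1b (limma adjusted p = 0.0121) and Ncapd2 (0.0157). Those not passing without the block included Ube2c, whose untreated libraries were spread over 31.1, 66.7 and 81.3 FPKM against 125, 120 and 124 FPKM (1.14 ± 0.30, limma adjusted p = 0.0947, and 0.0354 with the block).

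Of the DNA replication genes, 0 of 38 passed in limma (1 at an unadjusted p under 0.05), a count near the 1.84% of all tested genes that passed. Their median change was 0.00 (log2). Their mean level was 5.69 ± 0.28 in untreated and 5.72 ± 0.10 in treated wild type (log2(FPKM + 1), SD, n = 3). The mean level of the 45 mitosis genes was 4.75 ± 0.27 and 5.46 ± 0.08 on the same scale. Of the 130 other mitosis genes, 9 were higher and 0 lower. No marker list of other cells had a gene that passed as higher in this contrast without the block. The T and NK cell markers were nonetheless higher in every treated library in all 6 genes tested, with a median of 1.41 (log2), 4 of them at an unadjusted p under 0.05. Summed, these markers lay between 124 and 168 FPKM in the untreated and between 269 and 311 FPKM in the treated wild-type libraries. Nkg7 alone made up 122 to 167 and 256 to 295 FPKM of these sums, whereas Cd3e lay at 0 to 0.095 and 0.574 to 0.873 FPKM. The part of these markers in the result was not tested. In it 4 of 10 erythroid genes, 2 of 8 macrophage genes and 1 of 10 stem cell genes were lower. Deviations of same-numbered libraries of the 2 wild-type groups correlated at 0.403, 0.123 and 0.383, but treated replicate 3 and untreated replicate 2 also gave 0.123. With the number as a block in a fit of these groups alone, chosen after seeing the data, 32 mitosis genes were higher and 0 lower. There 11.7% of 11938 tested genes passed, 5.09% as higher. Whether the number pairs samples is not known. In that fit 44 other mitosis genes, 1 DNA replication gene, 5 of 5 T and NK cell, 4 of 10 myeloid, 3 of 7 megakaryocyte and 3 of 10 erythroid markers also passed as higher. Without the block, leaving out untreated replicate 1 or 2 or treated replicate 1 or 2 left 4 genes past the threshold and leaving out treated replicate 3 left 6. Aurka, Ccnb2, Cenpa and Kif2c passed in each of these fits.

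**Figure D4:**
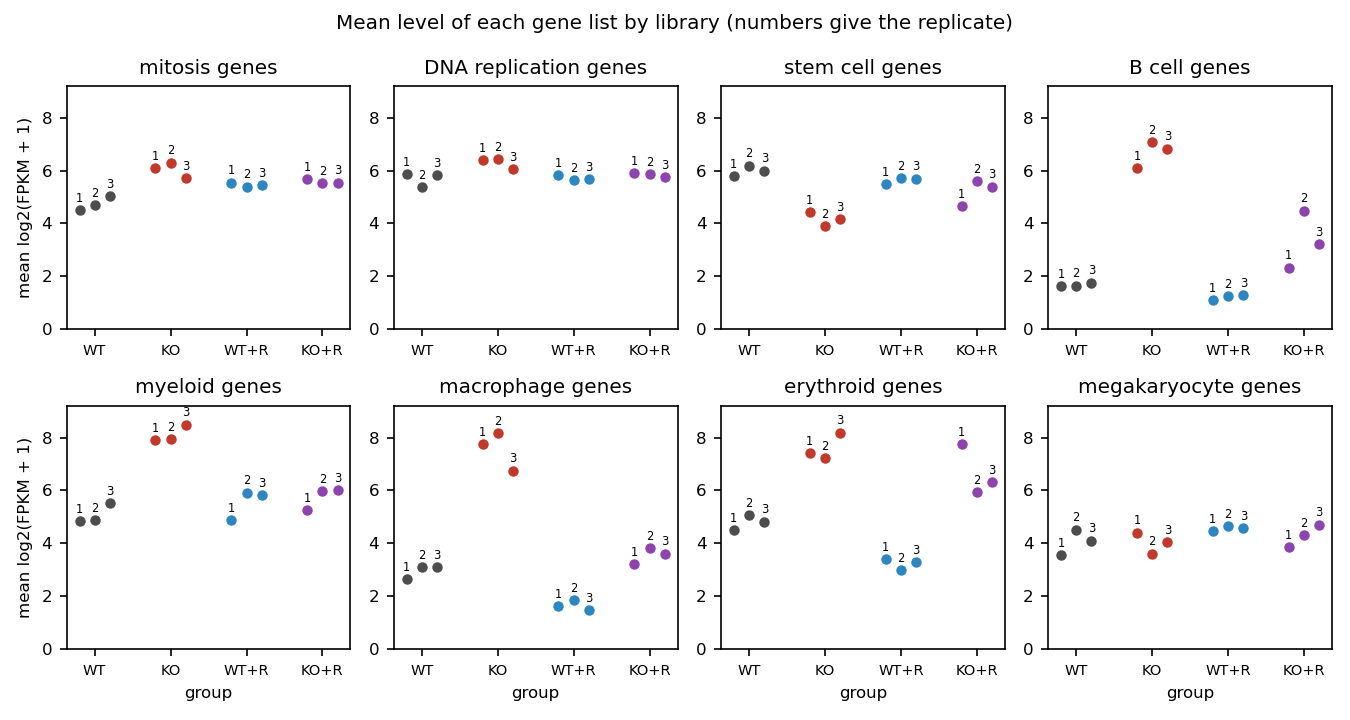
Mean log2(FPKM + 1) of each gene list (y axis) in each library (points numbered by replicate) for the 4 groups on the x axis (WT, KO, +R as above). The 45 mitosis genes rise from 4.75 in untreated wild type to 5.46 in treated wild type, while the DNA replication list stands at 5.69 and 5.72.

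In knockout mice Romiplostim went with lower levels of the mitosis genes. Of the 45, 19 were lower and 0 higher than in untreated knockout, where 29.6% of all tested genes passed, 18.9% as lower and 10.7% as higher. The median log2 fold change was -0.52, against -0.09 over all tested genes, and in 21 genes all treated libraries lay below all untreated ones (24.7% of tested genes). Cdc25b changed most, from 49.5 ± 11.0 to 16.7 ± 5.09 FPKM (-1.54 ± 0.28, limma adjusted p = 0.00252). Ncaph stood at 102, 109 and 67.3 FPKM untreated and at 48.1, 48.5 and 42.2 FPKM treated (-0.96 ± 0.19, limma adjusted p = 0.00369), and Plk1 followed with the values given above (-0.88 ± 0.17, limma adjusted p = 0.00376). In these 3 genes no treated library reached the lowest untreated one. Of the cytokinesis genes 5 of 6 fell (Kif23, Ect2, Kif20a, Prc1 and Racgap1, by 0.63 to 0.87 on the log2 scale), of the spindle genes 4 of 6 (Kif4, Kif11, Nusap1 and Kif2c, -0.67 to -0.71) and of the checkpoint genes 2 of 5 (Bub1b -0.75, Bub1 -0.67). Foxm1 (-0.88), Aurka (-0.69), Ndc80 (-0.65), Ncapd2 (-0.62) and Aurkb (-0.52) fell as well.

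Several genes that stood high in untreated knockout did not pass for a fall. Cenpa was at 233, 297 and 227 FPKM untreated and at 315, 222 and 208 FPKM treated (-0.04 ± 0.20, limma adjusted p = 0.914), so that the groups overlapped. Cdk1 (0.08 ± 0.18), Ube2c (0.01 ± 0.30), Cdc25c (0.03 ± 0.22) and Cenpe (0.04 ± 0.25) did not pass either. None of the 4 anaphase genes passed. At an unadjusted p under 0.05, Cdc20 was lower (-0.52 ± 0.18, limma adjusted p = 0.0524) and Pttg1 higher (0.33 ± 0.14, limma adjusted p = 0.0953). Among the other mitosis genes 29 were lower and 6 higher, with Nek2 (-0.98), Mybl2 (-0.97) and Gtse1 (-0.97) lower and Anapc13 (0.78) and Cenpx (0.72) higher. DNA replication genes were lower in 16 of 38 cases, Rrm2 by -1.65 and Ccne1 by -1.54.

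These falls moved with 2 other features of the same libraries. Markers of other cells fell in the same contrast, with 11 of 11 B cell, 8 of 8 macrophage, 10 of 12 myeloid, 6 of 7 stromal and endothelial and 3 of 10 erythroid genes lower, while 7 of 10 stem cell genes were higher. The summed B cell level was 1828 to 4354 FPKM untreated and 99.3 to 673.9 FPKM treated, and the summed macrophage level 1163 to 3135 and 105 to 147 FPKM. Their part in the result was not tested. All 3 untreated knockout libraries had Y-linked transcripts (a mean of 11.3 to 24.9 FPKM over 4 genes) and all 3 treated ones had next to none (0.00537 to 0.0389 FPKM), so within knockout sex and treatment cannot be told apart. With sex as a covariate, estimated from the wild-type groups, 1 mitosis gene was lower, Cdc25b, although the median was -0.50. Without untreated knockout replicate 1 or 2 there were 7 genes lower, and without treated knockout replicate 3 there were 9. Aurka, Cdc25b, Kif20a, Kif23, Kif2c, Ncaph and Plk1 passed whichever library was left out. The split of all called genes depended on scaling: 36.3% were higher as deposited, 58.2% after quantile normalization and 47.4% after median-of-ratios scaling. After quantile normalization the median over all tested genes was 0.07 in place of -0.09, and that of the mitosis genes was -0.45, with 16 lower and 1 higher, Pttg1.

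**Figure D5:**
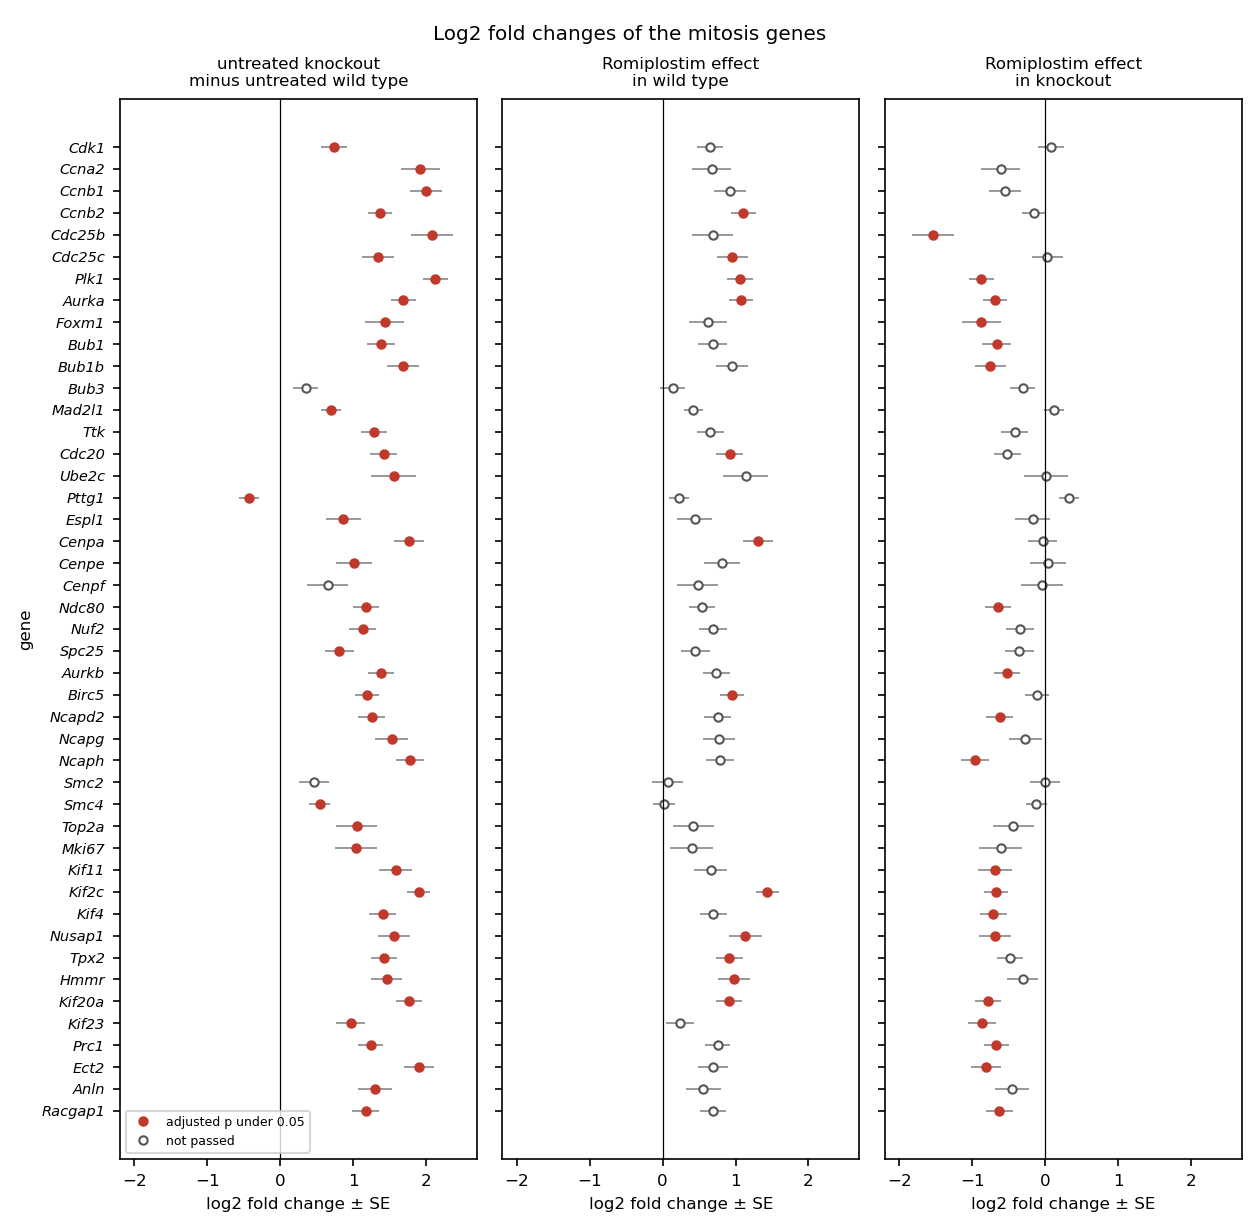
Log2 fold change ± SE (x axis) of each of the 45 genes (y axis, by role) in 3 comparisons, with filled points for an adjusted p under 0.05. Untreated knockout against untreated wild type has 41 filled points to the right and 1 to the left, Romiplostim in wild type 12 to the right, and Romiplostim in knockout 19 to the left.

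Under Romiplostim no mitosis gene passed the test between genotypes: of the 45 genes 0 passed between treated knockout and treated wild type in limma, where 1.37% of all tested genes passed (0.632% as higher, 0.741% as lower). At an unadjusted p under 0.05 there were 5. The lowest adjusted p was 0.141, that of Mad2l1, which stood at 138, 119 and 125 FPKM in treated wild type and at 178, 157 and 170 FPKM in treated knockout, with no overlap (0.40 ± 0.13). In the same comparison Ccna2 had a fold change of 0.64 ± 0.27, with 86.0, 77.3 and 91.4 FPKM against 156, 113 and 132 FPKM. The median was 0.11 (log2), and 30 fold changes were positive. In 9 genes all treated knockout libraries lay above all treated wild-type ones (9.94% of tested genes), and in 1, Pttg1, all lay below (15.2% of tested genes). Leaving out treated knockout replicate 2 brought Smc2 past the threshold (1 gene higher), and leaving out untreated knockout replicate 3 as well brought Smc2 and Mad2l1 past it (2 genes higher). Among the markers, 6 of 10 erythroid, 5 of 8 macrophage and 3 of 11 B cell genes were higher in treated knockout. Mean Y-linked levels were 0.0221, 18.5 and 21.2 FPKM in treated wild type and 0.0273, 0.0389 and 0.00537 FPKM in treated knockout. Genotype and sex thus partly coincide here. A p that misses the threshold does not show that the genotypes were alike.

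Treated knockout still differed from untreated wild type in most of the set. In limma 29 of the 45 genes were higher and 0 lower, where 10.4% of all tested genes passed, 2.93% as higher and 7.52% as lower. In 35 genes all libraries of treated knockout lay above those of untreated wild type (8.98% of tested genes), and in 0 all lay below (18.0% of tested genes). The median log2 fold change was 0.85, against -0.10 over all tested genes. Median-of-ratios scaling moved the latter to 0.02 and the former to 0.97, with 45.9% of all called genes higher where 28.1% were as deposited. Cenpa was farthest from untreated wild type, at 249 ± 58.2 against 74.2 ± 16.7 FPKM (1.73 ± 0.20, limma adjusted p = 0.00102), followed by Ube2c (1.57), Ccnb1 (1.44) and Cdc25c (1.37). All 6 spindle genes and 7 of 8 entry genes were higher, Cdc25b being the entry gene that was not (0.55 ± 0.28). Mean Y-linked levels were 22.5, 0.137 and 23.2 FPKM in untreated wild type and 0.0273, 0.0389 and 0.00537 FPKM in treated knockout. With sex as a covariate 7 genes were higher, namely Ccnb1, Ccnb2, Plk1, Mad2l1, Cenpa, Birc5 and Kif2c. Without untreated wild-type replicate 1 or 2 there were 19. Of the marker lists, 7 of 10 erythroid, 6 of 11 B cell and 5 of 6 T and NK cell genes were higher in this comparison, and their part in it was not tested.

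The order of group means was shared widely within the set. Untreated knockout had the highest mean in 38 of the 45 genes, treated knockout in 6 and treated wild type in 1 (Pttg1). Untreated wild type had the lowest mean in 44. In 38 genes both treated means lay between the untreated means. These orders were not counted over all tested genes, so the counts do not show a trait particular to the set. The effect of Romiplostim in knockout minus that in wild type was negative for 44 genes and passed for 30, all lower, where 15.6% of all tested genes passed, 10.0% as lower and 5.53% as higher. Its median was -1.26, against -0.05 over all tested genes, and quantile normalization moved these to -1.18 and 0.08, with 55.5% of all called genes higher where 35.5% were as deposited. The largest were Cdc25b (-2.22 ± 0.40, limma adjusted p = 0.00586), Kif2c (-2.11 ± 0.23, limma adjusted p = 0.000793) and Plk1 (-1.94 ± 0.25, limma adjusted p = 0.00131). Of the markers, 9 of 11 B cell, 8 of 12 myeloid and 7 of 8 macrophage genes passed as lower in the same test and 6 of 10 stem cell genes as higher, and their part in it was not tested. With sex as a covariate 10 genes passed, namely Ccnb2, Cdc25b, Plk1, Aurka, Cdc20, Cenpa, Ncaph, Kif2c, Nusap1 and Kif20a.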

How the data were processed

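FPKM per gene and library were calculated by the authors and deposited as 1 table. The submitters' processing notes name mm10, TopHat2 and Cufflinks 2.2.1, without roles. Annotation release, filters and strand setting are not given in the sources used here, so reads of overlapping genes cannot be told apart. All 12 library columns were used (0 other columns were left out). Depth was estimated from the whole fragment multiples that low FPKM values imply (45.8% to 53.6% of values whole within 0.05 fragments). The lowest member value, Espl1 at 0.553 FPKM, rests on about 170 fragments, a counting error only, since reads carry no molecular identifiers. Gene identifiers were matched to GENCODE M21 on GRCm38, the same assembly as mm10 (34490 of 35275 matched).

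Values were tested as log2(FPKM + 1) with limma 3.58.1 in R 4.3.3, two-sided, as group means over all 12 libraries with an intensity trend and no replicate block, over 12823 genes with at least 1 FPKM in at least 3 libraries. Benjamini-Hochberg adjusted p under 0.05 was the criterion. An exact test of 3 against 3 cannot go below 0.1. The fit was tried on simulated data for untreated knockout against untreated wild type, with 200 changed genes and independent noise per gene. It recovered 71% of genes changed by 1 and 90% of genes changed by 2 on the log2 scale, with 3 false calls among 12823. In the real contrast 45.1% of genes passed and libraries shifted across many genes together, so these rates need not hold there. Deviations of same-numbered libraries correlated at 0.403, 0.123 and 0.383 in the 2 wild-type groups and at 0.188, 0.064 and 0.19 in the 2 knockout groups. Treated wild-type replicate 3 and untreated replicate 2 also gave 0.123. Mean Y-linked levels in wild type were 22.5 FPKM untreated and 0.0221 FPKM treated for replicate 1, but 0.137 and 18.5 FPKM for replicate 2. The labels give no pairing, and these values do not show that the replicate number pairs samples. All 45 members could be named. Of each other list, the 4 genes with the smallest p in untreated knockout against wild type and the 4 in Romiplostim against untreated knockout could be named. So could the 10 tested genes most alike to the members. The members and lists were chosen with earlier results of these data known. Alternatives changed the pseudocount, filter, scaling, trend, libraries, replicate block and sex covariate.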

Additional observations from a re-analysis of the deposited data

Results flagged for a closer look

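The effect of Romiplostim differed between genotypes, by limma's test of the difference itself, for 30 of the 45 genes. For all 30 the knockout effect was below the wild-type effect, which makes the difference negative. On the log2 scale it was -2.22 for Cdc25b, -1.94 for Plk1, -1.77 for Aurka, -1.48 for Ccnb1, -1.28 for Ccna2 and -1.26 for Ccnb2 among the genes of mitotic entry, and -1.50 for Foxm1. For the checkpoint genes Bub1b, Bub1 and Ttk it was -1.70, -1.35 and -1.07, and for Cdc20 it was -1.44. Kinetochore and passenger genes gave -1.34 for Cenpa, -1.18 for Ndc80, -1.04 for Nuf2, -1.26 for Aurkb and -1.06 for Birc5. The condensin genes gave -1.75 for Ncaph, -1.38 for Ncapd2 and -1.05 for Ncapg. Spindle genes gave -2.11 for Kif2c, -1.82 for Nusap1, -1.41 for Kif4, -1.40 for Tpx2, -1.35 for Kif11 and -1.29 for Hmmr. Cytokinesis genes gave -1.69 for Kif20a, -1.50 for Ect2, -1.42 for Prc1, -1.32 for Racgap1 and -1.11 for Kif23. Within knockout, sex and treatment cannot be told apart, which bears on this difference too. With a sex covariate 10 of the 30 still passed. Of the alternatives run, Ncapg lost its call in 16, Ccna2 in 13, Nuf2 in 8, Foxm1 in 6 and Kif23 in 4, the sex covariate among them each time, and the other genes that lost it did so only with that covariate.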

How the results depend on the processing

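The rise in untreated knockout held under every alternative run, with 39 to 45 genes past the threshold, of which 39 to 44 rose. The median log2 fold change lay between 1.18 and 1.51 over the mitosis genes and between -0.10 and 0.01 over all tested genes. The 5 FPKM filter tested 44 genes. For Romiplostim in wild type, where 12 of 45 passed, the count was 7 without a filter, 19 with median-of-ratios scaling, 20 with the 2 groups alone, 22 without the 2 libraries high in other cells' markers, 32 with the replicate block in wild type alone and 4 to 14 with each library left out. Over all genes (236) it was 122 with a filter of 5 FPKM, then 611, 434, 1396 and 62 to 117. For Romiplostim in knockout (19 of 45) it was 9 with the 2 groups alone, 1 with a sex covariate and 7 to 23 with a library left out, and over all genes (3797) 2027, 770 and 2214 to 4305. Between treated groups (0 of 45) it was 2 without the high-marker libraries and 0 to 1 with one left out. There all genes (176) gave 326 with a pseudocount of 0.1, 57 without a filter, 270 with quantile normalization, 68 with the 2 groups alone, 1755 without the high-marker libraries, 28 with a sex covariate and 30 to 1565 with one left out, the highest without treated knockout replicate 2. For treated knockout against untreated wild type (29 of 45) it was 19 with the 2 groups alone, 7 with a sex covariate and 19 to 31, and over all genes (1340) 883 with a filter of 5 FPKM, 427 with the 2 groups alone, 3106 without the high-marker libraries, 216 with a sex covariate and 641 to 2850. For the difference between the effects of Romiplostim (30 of 45) it was 10 with a sex covariate and 25 to 33, and over all genes (1996) 261 and 1093 to 2687. The cause was not tested. The replicate block in the fit of all libraries gave 42, 9, 16, 0, 26 and 28 mitosis genes in the order above. Counts over all tested genes are not given for that fit, so these counts alone do not set the mitosis genes apart. No gene's called value changed sign. Libraries of 3 per group and depth limit low genes such as Espl1 most.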

Other observations

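The genes outside the set whose profile over the 12 libraries was most like the mean of the 45, among 12778 compared by Pearson's r on log2(FPKM + 1), were Ckap2l (r = 0.988), Dlgap5 (0.987), Kif18a (0.983), Incenp (0.982), Ccnf (0.979), Spag5 (0.978), Sapcd2 (0.978), Melk (0.975), Ska1 (0.975) and Ankle1 (0.973). Of these, 8 stood in the lists of other mitosis genes and 2, Sapcd2 and Ankle1, did not. Sapcd2 had means of 10.4 FPKM in untreated wild type, 35.4 in untreated knockout and 24.6 in treated knockout. Ankle1 had 9.32, 27.2 and 15 FPKM in the same order. The libraries share groups and depth differences, so these values describe likeness only.

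Spearman's rho between merged exon length and log2 fold change across the 45 genes was -0.448 for untreated knockout against untreated wild type and -0.493 for Romiplostim in wild type, against 0.11 and -0.143 across 12751 tested genes. For Romiplostim in knockout it was 0.129 across the 45 and -0.182 across all. Genes are not independent replicates.

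In untreated knockout against untreated wild type the median log2 fold change was 1.29 in the 31 genes with CHR letters and 1.39 in the 7 with a window and none. For the CCAAT letters it was 1.37 in the 29 genes with them and 1.20 in the 9 without.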
